A study of Homo sapiens with 18 samples.

Results

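Chromatin accessibility was described at the promoters of 42 interferon-stimulated genes, among them PARP9 and DDX60L, in 6 human ovarian cancer cell lines. Members were the windows of the deposited table that lay within 2 kb of the start of each gene's canonical transcript. Of the 42 genes, 34 had a window holding the start itself, here called the start window, out of 13696 of the 20136 protein-coding genes. PARP9 and DTX3L start on opposite strands inside the same window, so the 34 genes gave 33 distinct start windows, and 67 windows lay within 2 kb of a member's start. The remaining 8 genes, IFI35, OASL, MX2, SAMD9L, TRIM22, IFITM1, IFITM3 and XAF1, had no window within 2 kb in the table and were not analysed here.

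Each of 3 platinum-sensitive lines was matched to a resistant partner, and 3 ATAC-seq libraries were made per line, 18 in all. ATAC-seq counts the cuts of the Tn5 transposase, which reaches DNA that is not covered by nucleosomes. CP70 was selected for resistance in culture from A2780, and both are labelled as endometrial/ovarian cancer cells. PEA1 (sensitive) and PEA2 (resistant) came from the same patient, as did PEO1 (sensitive) and PEO4 (resistant), in each case before and after resistance appeared in the clinic. All lines were grown in RPMI-1640 with serum and carry no label of a drug or interferon treatment. Each resistant state is represented by a single line, and the labels do not say that the 3 libraries of a line came from separate cultures. The p-values therefore measure the spread between these libraries, which may be technical.

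Type I interferon binds a receptor pair that activates the kinases JAK1 and TYK2. These phosphorylate STAT proteins such as STAT2, which joins IRF9 at the interferon-stimulated response element in the promoters of target genes. The products of these genes sense viral RNA, block translation, degrade RNA or mark proteins with ISG15, and many carcinoma lines keep part of the program on without added interferon.

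The response element was visible in the promoters themselves. Its core, searched as GAAA, any 2 bases and GAAA again on both strands from 250 bases before to 50 bases after the start in GRCh37, were found in 27 of the 42 genes, against 3.19% of 20094 other promoters. At least 2 matches, overlapping ones included, were found in 17 genes. The letters TTCNNNGAA, the core of the gamma-activated site, were found in 12 of the 42 genes, against 6.45% of the other promoters. A match is a description of the sequence and not a measured binding site. Matches from some of the promoters whose accessibility is described most closely were as follows, others such as those of IFI6 and USP18 being left out, read 5′ to 3′ on the strand of the gene, with the motif or its reverse complement in capitals. The PARP9 and DTX3L entries are the same stretch read in the opposite directions, and the IFI44L stretch occurred again unchanged at positions -164 and -73 from the start.
PARP9, chr3:122283169-122283198, minus strand: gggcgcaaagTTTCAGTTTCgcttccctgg
DTX3L, chr3:122283169-122283198, plus strand: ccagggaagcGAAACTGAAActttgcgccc
DDX60L, chr4:169401704-169401733, minus strand: gaaaactgcgGAAATCGAAAaggcctcgcg
DDX60L, chr4:169401674-169401703, minus strand: gtggagaaaaGAAACCGAAActaactccct
RSAD2, chr2:7017753-7017782, plus strand: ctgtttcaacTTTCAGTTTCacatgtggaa
SAMD9, chr7:92747409-92747438, minus strand: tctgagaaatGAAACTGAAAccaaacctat
BST2, chr19:17516550-17516579, minus strand: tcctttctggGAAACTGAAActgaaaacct
IFI44L, chr1:79086050-79086079, plus strand: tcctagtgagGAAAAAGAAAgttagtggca
IFIT1, chr10:91152254-91152283, plus strand: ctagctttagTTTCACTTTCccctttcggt
ISG20, chr15:89182168-89182197, plus strand: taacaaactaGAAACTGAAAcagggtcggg
EIF2AK2, chr2:37384110-37384139, minus strand: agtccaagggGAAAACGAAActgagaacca
The promoters of HERC6, CMPK2, IRF7, IRF1, MX1 and OAS1 held no match of the core in this stretch.

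Library totals ranged from 8963079 reads in a PEO1 library to 60435027 in an A2780 library. The share of reads inside the 89428 windows of the table was lowest in A2780 (9.26% ± 0.832, SD, n = 3), then CP70 (13.1% ± 2.16), PEA1 (15.3% ± 2.12), PEA2 (18.9% ± 1.82) and PEO4 (34.4% ± 1.51), and highest in PEO1 (39.9% ± 0.949). FPKM values of different lines therefore sit on different scales, and levels across lines are given relative to other promoters. The median log2 fold change over all windows was 0.59 in CP70 against A2780, 0.31 in PEA2 against PEA1 and -0.30 in PEO4 against PEO1. Over other promoter start windows it was 0.58, -0.24 and -0.02. Values with the 5 Mb median removed, given below, are set against all windows nearby, promoters or not. In the PEA and PEO pairs their zero is therefore not that of promoter centring. A change was called only when limma gave a Benjamini-Hochberg adjusted p below 0.05 with the values as deposited and again after each library was centred on the median of its promoter start windows, in the same direction. Of the epithelial markers, PAX8, WT1, EPCAM, KRT8, KRT18 and CDH1 had start windows. In A2780 all 6 lay low, at percentiles 4.03 to 16.8 of the other promoters. In CP70 they ranged from 7.64 for PAX8 to 25.7 for KRT18, in PEA1 from 6.40 for CDH1 to 53.8 for PAX8, and in PEA2 from 12.1 for KRT18 to 75.5 for WT1. In PEO1 they ranged from 17.1 for CDH1 to 85.0 for WT1, and in PEO4 from 27.6 to 92.2 for the same genes. The start windows of MUC16 and of the blood and vessel markers PTPRC, CD3E, LYZ and CDH5 were not among those analysed here.

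The 33 start windows were less accessible than most promoters in every line. Their median percentile among 12689 other promoter start windows ran from 24.5 ± 4.48 (SD over the 3 libraries) in CP70 and 26.9 ± 0.176 in A2780, through 31.7 ± 3.21 in PEO1 and 33.0 ± 3.81 in PEA2, to 35.0 ± 1.55 in PEO4 and 35.8 ± 3.88 in PEA1. A2780 had 7 members above the median promoter, PEO4 had 8, CP70 had 9, PEA1 had 10, PEO1 had 11 and PEA2 had 12. Below the 10th percentile lay 12 members in both A2780 and CP70, 7 in both PEA1 and PEO1, 5 in PEA2 and 2 in PEO4. In bulk libraries, fewer cells with an open promoter and less opening per cell cannot be told apart, and the number of DNA copies was not measured.

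**Figure D1:**
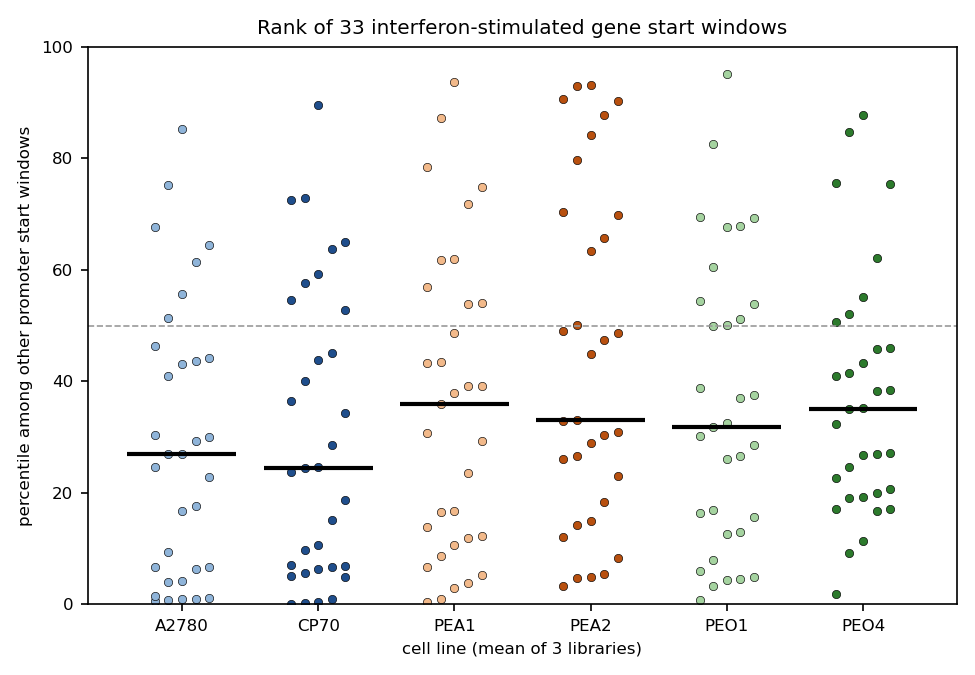
Percentile of each of the 33 start windows (points) among 12689 other promoter start windows, by cell line from the mean of 3 libraries, with the median of the 33 as a bar and the median promoter as a dashed line. The medians sit between 24.5 in CP70 and 35.8 in PEA1, all under the dashed line, while single members reach 95.1 in PEO1.

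Base composition set these promoters apart from the rest. A window counted as CpG-rich when its GC content was above 50% and its ratio of observed to expected CpG above 0.6, which held for 13 of the 33 member windows (39.4%) and 81.3% of the other promoter windows. CpG-rich members had a median relative level of -0.13, meaning log2(FPKM + 0.1) minus the promoter median of the library, and the other members of -0.97. For other promoters these medians were 0.11 and -0.75. The levels of the members also spread more over the 6 lines, with a median range of 1.65 on the log2 scale against 1.33 for other promoters. Within the CpG-rich class the ranges were 1.57 and 1.27, and outside it 1.91 and 1.58. A window is in the table only if at least 2 libraries exceed 2 FPKM. BST2, IFI44, IFI44L, MX1 and IFIT2 met that through 1 line, which favours a wide range. How much this, or the lower level of the members within each class, adds to the ranges was not tested. Members with a match of this core (24 windows, 8 of them CpG-rich) and without it (9 windows, 5 of them CpG-rich) had median percentiles of 23.7 and 43.1 in A2780, 33.0 and 63.4 in PEA2, and 26.8 and 41.4 in PEO4.

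The 4 factors of the program differed in level. The window of IRF1, a transcription factor induced by interferon gamma, stood between percentile 84.2 (PEA2) and 93.7 (PEA1) in all lines but PEO1, where it was at 53.8. STAT2, which carries the response to type I interferon, ranged from percentile 30.9 in PEA2 to 75.5 in PEO4, and IRF9, its DNA-binding partner, from 16.4 in PEO1 to 63.4 in PEA2. IRF7, the factor that amplifies interferon production, ranged from percentile 0.402 in PEA1 to 41.4 in PEO4. Its range of relative levels, 2.82 on the log2 scale, was the widest of the 4, though its range of percentiles was not.

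Among genes for RNA sensing and the helicases, IFIH1, which encodes the double-stranded RNA sensor MDA5, was open in all lines, from percentile 57.6 in CP70 to 90.3 in PEA2. DDX60L, a DExD/H-box helicase gene, stood at 61.5 in A2780, 63.7 in CP70, 53.9 in PEA1 and 37.6 in PEO1, and lower in the resistant lines PEA2 (12.05) and PEO4 (17.0). The order of its relative levels was CP70, A2780, PEA1, PEO1, PEA2 and PEO4, and the libraries of neighbours in that order overlapped between CP70 and A2780 and between A2780 and PEA1 but not further down. The paralog DDX60 varied less, with a range of 0.83 on the log2 scale against 1.65 for DDX60L. EIF2AK2, which encodes the kinase PKR that stops translation, ranged from 37.8 in PEA1 to 64.9 in CP70.

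The PARP genes encode ADP-ribosyltransferase family proteins. The shared PARP9/DTX3L window was least open in A2780 (percentile 27.0) and CP70 (45.1), followed by PEO1 (50.1), PEA1 (61.8) and PEO4 (62.2), and most open in PEA2 (87.8). PARP9 encodes a macrodomain protein that works in a complex with the ubiquitin ligase DTX3L. The order of its relative levels was PEA2, PEO4, PEA1, PEO1, CP70 and A2780, with overlap of libraries only between PEA1 and PEO1 and between PEO1 and CP70. PARP12, a mono-ADP-ribosyltransferase gene, stood at 6.61 in A2780 and 6.74 in CP70 but at 52.1 in PEO4, 69.4 in PEO1, 74.8 in PEA1 and 90.6 in PEA2. PARP14 had the same order of lines as PARP9, from 17.7 in A2780 to 69.9 in PEA2.

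Among the OAS genes, whose enzymes make 2-5A, OAS1 was nearly closed in the A2780 pair, at percentiles 0.567 and 0.386, and stood at 32.3 in PEO4. OAS2 was highest in PEA1 (56.9) and OAS3 lay between 15.2 in CP70 and 41.0 in PEO4. ISG20, an RNA exonuclease gene, was at 26.9 in A2780 and 93.0 in PEA2.

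The ISG15 system includes the ubiquitin-like modifier ISG15, its ligase HERC5, the related HERC6 and the protease USP18 that removes it. ISG15 stayed between percentile 36.9 in PEO1 and 64.4 in A2780, and HERC5 between 26.1 in PEO1 and 54.1 in PEA1. USP18 was low in A2780 (1.52) and CP70 (6.88) and reached 48.6 in PEA2. HERC6 stood between 69.5 (PEO1) and 79.7 (PEA2) in PEO1, PEA1, CP70 and PEA2, at 46.3 in A2780 and at 27.1 in PEO4.

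The IFIT genes, whose products bind viral RNA ends, lie side by side on chromosome 10. All 4 stood at or below percentile 40.9 in every line apart from IFIT3 in A2780, which reached 75.3. IFI44L and IFI44, neighbours on chromosome 1, were the most closed members in CP70, at 0.158 and 0.0946. The 3 CP70 libraries held 2, 3 and 1 reads in the IFI44 window. IFI27 was highest in PEO1 (32.5), and IFI6 reached its highest percentile in CP70 (43.8).

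Among restriction factors, MX1, a GTPase that traps viral capsids, stayed at or below percentile 23.1 in all lines. BST2, which encodes tetherin and is in the table through PEA1 alone, had the widest range of all members, 3.79 on the log2 scale, from 30.8 in PEA1 to 0.796 in PEO1, where its libraries held 1, 7 and 3 reads. SAMD9 lay between 0.867 in CP70 and 26.0 in PEA2. RSAD2, the gene of viperin, and CMPK2, a nucleotide kinase gene, are neighbours on chromosome 2 that start at bases 7017908 and 7006038 and are read in opposite directions. RSAD2 ranged from percentile 0.843 in A2780 to 70.4 in PEA2, and CMPK2 was the most open member in PEO1 at 95.1. SP110, a nuclear body gene, varied little, from 34.4 in CP70 to 65.7 in PEA2.

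**Figure D2:**
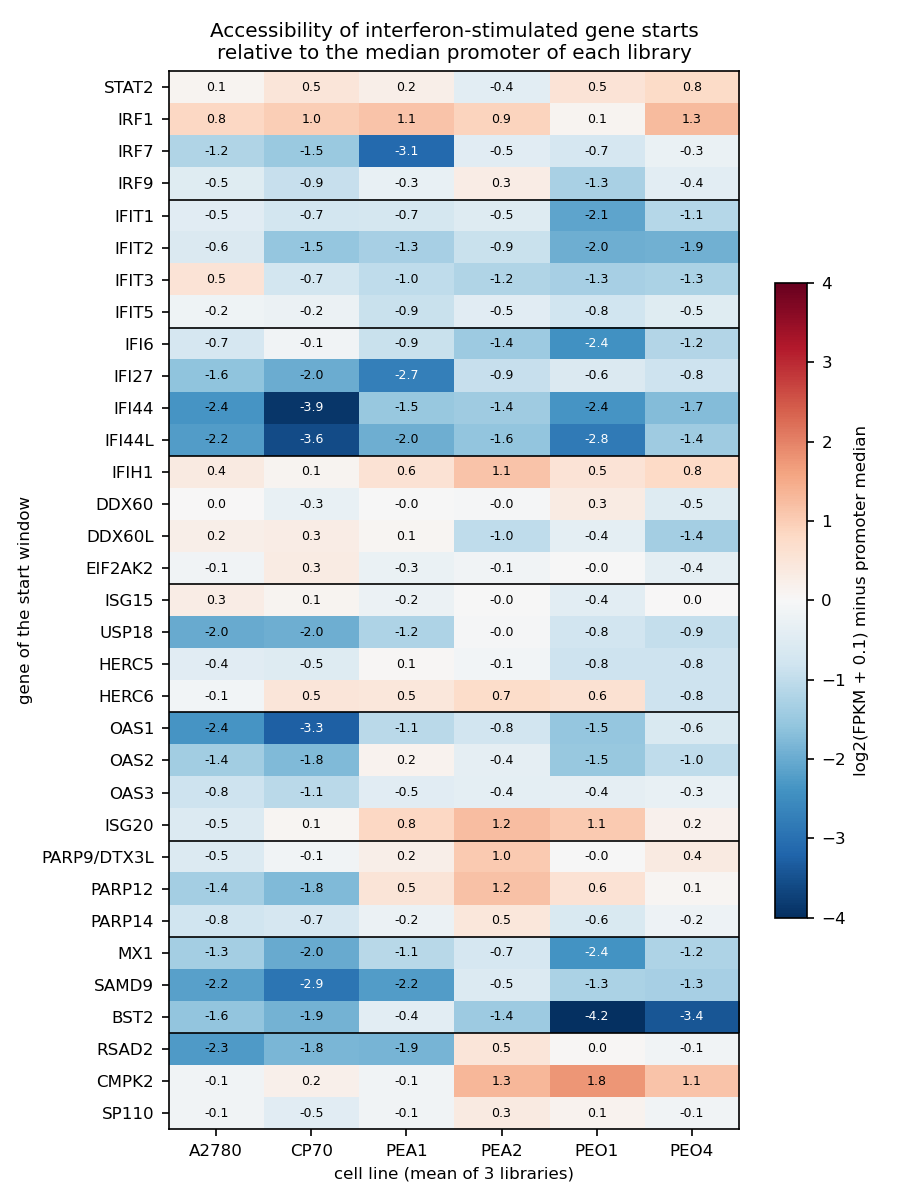
Relative level of the 33 start windows (rows, grouped by role) in the 6 cell lines (columns), as the mean over 3 libraries of log2(FPKM + 0.1) minus the library's median over other promoter start windows. Red cells are above the median promoter and blue cells below it, BST2 in PEO1 is the deepest blue, and CMPK2 in PEO1 the deepest red.

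In 8 of the 33 windows all 3 PEA2 libraries lay above those of every other line in relative level: IRF9, IFIH1, USP18, PARP9/DTX3L, PARP12, PARP14, SAMD9 and RSAD2. Among other promoters PEA2 was clear of the rest in 12.5%. Of the 8, 4 were CpG-rich, out of 13 such members, and the share among CpG-rich promoters was 11%. Outside that class it was 4 of 20 members and 18.8% of promoters. A2780 stood clear in IFIT2 and IFIT3 (2.78% of other promoters), PEA1 in OAS2 and BST2 (5.68%), PEO1 in IFI27 and CMPK2 (8.71%), CP70 in IFI6 (2.71%) and PEO4 in none (12%). BST2 is in the table through PEA1 alone, so its high place in PEA1 was in part set by that.

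In most genes the start window held the highest signal among the gene's windows in the table. Of the 24 genes with more than 1 window within 2 kb, the start window was the highest of them in 17 genes in A2780, PEA1 and PEO1, in 18 in CP70, in 19 in PEA2 and in 21 in PEO4. The share for other genes is not given here, so this is not shown to be particular to the members. Next to the DDX60L start window the upstream neighbour held 1.53 FPKM in PEA2 against 2.57 in PEA1, and 2.84 in PEO4 against 5.996 in PEO1.

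The first comparison asked how the promoters differed between CP70, the line made resistant in culture, and A2780. Of 21 member windows with enough signal to test, a mean above 1 FPKM, 3 were called higher in CP70, namely ISG20, HERC6 and EIF2AK2 (7.01% of other promoters and 6.11% of all windows were called higher), and 1 was called lower, IFIT3 (1.48% and 2.29%). The median centred log2 fold change of the members was -0.07. The 12 windows below the level tested were IRF7, IFI27, IFI44, IFI44L, USP18, OAS1, OAS2, PARP12, MX1, SAMD9, BST2 and RSAD2.

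The ISG20 window held 1.48, 1.44 and 1.21 FPKM in the 3 A2780 libraries and 3.11, 3.89 and 2.89 FPKM in the CP70 libraries. Every CP70 library lay above every A2780 library. The limma log2 fold change was 1.19 ± 0.26 (SE) as deposited (adjusted p = 7.86e-05) and 0.60 ± 0.20 after centring (adjusted p = 0.0477). For EIF2AK2 the A2780 libraries held 1.60, 2.37 and 1.62 FPKM and the CP70 libraries 4.47, 3.65 and 3.73. The groups did not overlap, with a centred log2 fold change of 0.46 ± 0.14 (limma, adjusted p = 0.0361). For HERC6 they held 1.73, 2.64 and 1.42 FPKM and 6.29, 3.83 and 3.48. Again all CP70 libraries were higher, by 0.59 ± 0.15 after centring (limma, adjusted p = 0.0123).

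Both ISG20 and EIF2AK2 lost their call when any of 5 of the 6 libraries was left out, all but CP70 replicate 1, and HERC6 when A2780 replicate 3 was. With the mean of all windows within 2 kb ISG20 and EIF2AK2 were not called either. In the IFIT3 window the libraries overlapped in FPKM, at 2.81, 3.81 and 2.51 in A2780 and 2.65, 1.98 and 1.17 in CP70, and were clear of each other relative to other promoters. The centred log2 fold change was -1.27 ± 0.18 (limma, adjusted p = 0.00013). With the median of all windows in the same 5 Mb taken from each library, EIF2AK2 changed by 0.36 (adjusted p = 0.18) and ISG20 by 0.61 (adjusted p = 0.0501).

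The PARP9/DTX3L window held 1.59, 1.40 and 1.16 FPKM in A2780 and 4.09, 2.27 and 2.35 FPKM in CP70, with no overlap. Its log2 fold change was 0.98 ± 0.26 as deposited (limma, adjusted p = 0.00114) and 0.38 ± 0.17 after centring (adjusted p = 0.154), so it was not called. DDX60L held 2.06, 2.997 and 2.20 FPKM in A2780 and 5.08, 3.41 and 3.18 in CP70. Its difference was 0.65 ± 0.28 as deposited (limma, adjusted p = 0.0413) and 0.06 ± 0.13 after centring (adjusted p = 0.841), and relative to other promoters the lines overlapped.

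**Figure D3:**
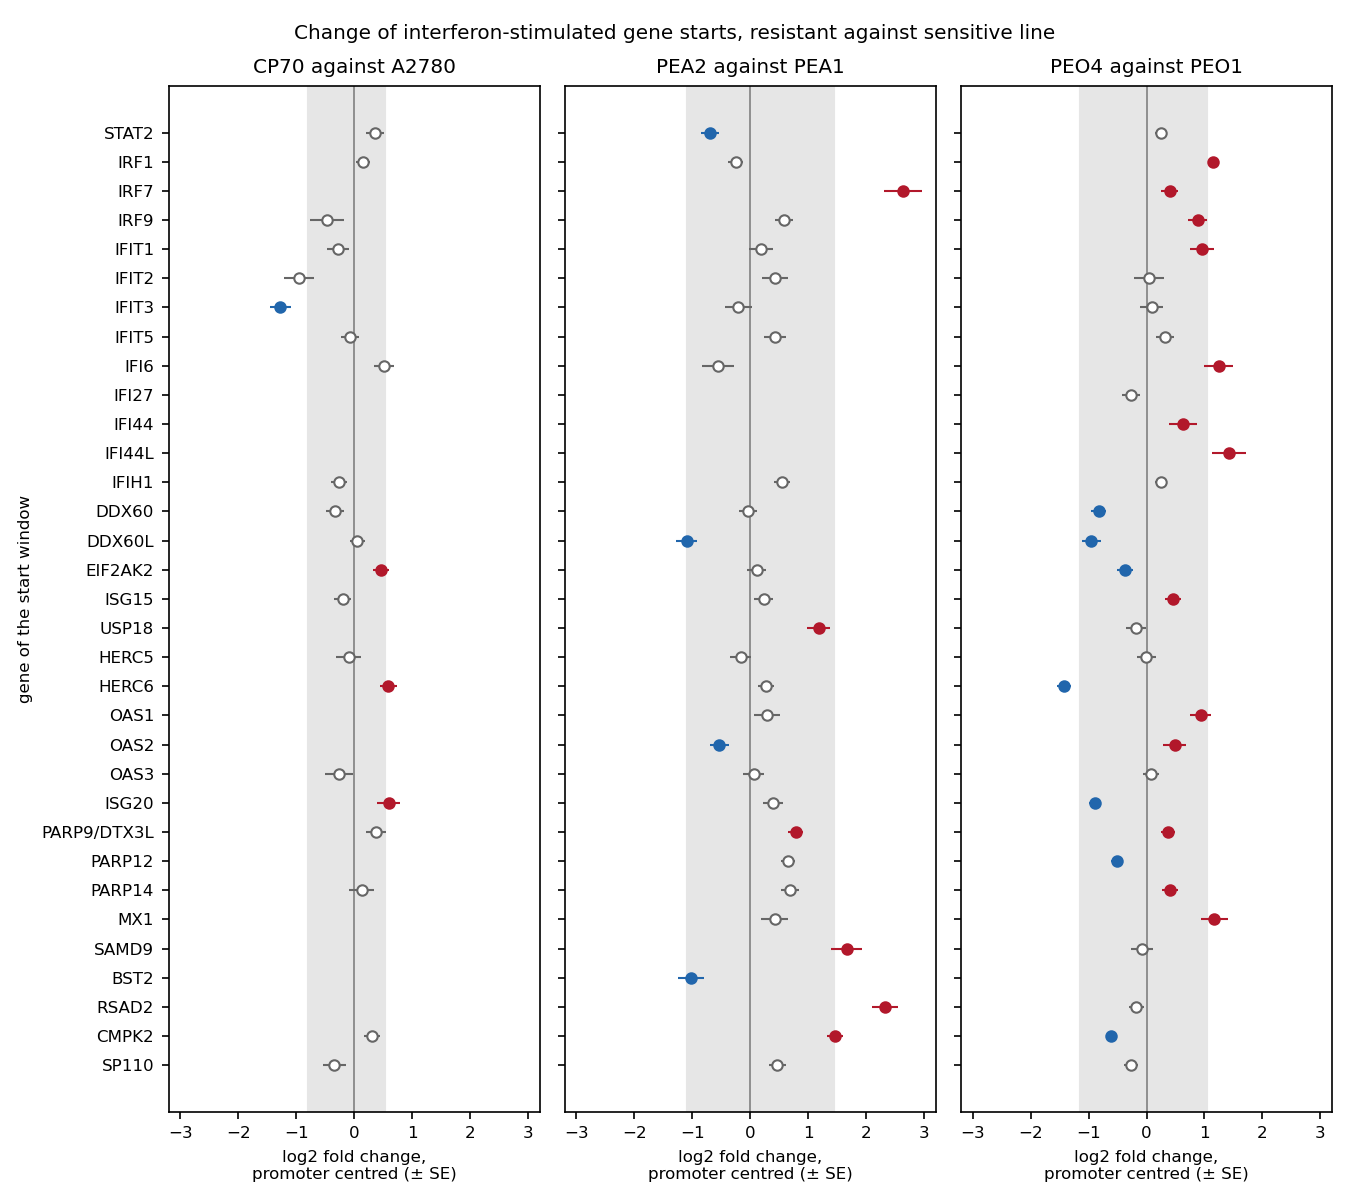
Promoter-centred log2 fold change with SE (limma) of each tested start window in the 3 resistant lines against their sensitive partners, filled red where called higher, filled blue where called lower and open where not called, over the 5th to 95th percentile of other promoters (gray). IRF7 reached 2.63 in PEA2 and HERC6 fell by 1.43 in PEO4, and most members lay inside the gray band in each pair.

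In PEA2 against PEA1, lines isolated from the same patient, 6 of 30 tested windows were called higher (17.6% of other promoters and 43% of all windows) and 4 lower (29.4% and 16.9%). The higher windows were IRF7, RSAD2, SAMD9, CMPK2, USP18 and PARP9/DTX3L, and the lower ones DDX60L, BST2, STAT2 and OAS2. The median centred log2 fold change of the members was 0.34. IFI27, IFI44 and IFI44L were below the level tested. At CpG-rich starts 3 of 13 members were called higher and 1 lower, against 15.1% and 31.1% of other CpG-rich promoters. At the remaining starts 3 of 17 were higher and 3 lower, against 29.9% and 21.4%. The lower ones there include BST2, whose fall was in part set by the choice of windows, as given below.

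IRF7 was nearly closed in PEA1. Its libraries held 0.160, 0.436 and 0.288 FPKM, that is 5, 14 and 6 reads, against 1.65, 2.49 and 1.60 FPKM in PEA2. All PEA2 libraries were higher, and the log2 fold change was 2.38 ± 0.32 as deposited (limma, adjusted p = 4.16e-13) and 2.63 ± 0.32 after centring (adjusted p = 6.19e-08). The window was close to the level tested. It was tested in only 4 of the 6 fits with a library left out, where the change was 2.11 to 2.63 as deposited. RSAD2, whose product viperin makes an antiviral nucleotide, held 0.961, 1.31 and 0.384 FPKM in PEA1 and 4.18, 3.47 and 3.46 FPKM in PEA2. The lines did not overlap, with a centred log2 fold change of 2.33 ± 0.23 (limma, adjusted p = 1.54e-09). SAMD9, a growth-restraining antiviral gene, held 0.929, 0.654 and 0.336 FPKM and 1.87, 1.45 and 2.00 FPKM. It was again higher in every PEA2 library, by 1.66 ± 0.27 (limma, adjusted p = 4.21e-06).

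CMPK2, which shares its region with RSAD2, held 2.92, 3.46 and 2.25 FPKM in PEA1 and 7.47, 5.84 and 6.88 FPKM in PEA2. USP18 held 1.76, 1.40 and 0.863 FPKM and 2.47, 2.43 and 2.75 FPKM. Neither overlapped between the lines, and the centred log2 fold changes were 1.46 ± 0.13 for CMPK2 (limma, adjusted p = 4e-10) and 1.18 ± 0.20 for USP18 (adjusted p = 7.92e-06). The windows around these genes moved with them. With the median of each 5 Mb taken from each library, CMPK2 changed by 0.14 (adjusted p = 0.371) and USP18 by 0.04 (adjusted p = 0.884), whereas IRF7 (1.39, adjusted p = 0.000225), RSAD2 (1.01, adjusted p = 0.000506) and SAMD9 (0.87, adjusted p = 0.00384) remained past the threshold.

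The PARP9/DTX3L window held 3.84, 4.27 and 3.21 FPKM in PEA1 and 5.77, 5.32 and 5.37 FPKM in PEA2. The groups did not overlap. The log2 fold change was 0.54 ± 0.23 as deposited (limma, adjusted p = 0.0305) and 0.79 ± 0.13 after centring (adjusted p = 5.97e-06), but -0.05 with the 5 Mb median removed (adjusted p = 0.754). The call was lost when PEA1 replicate 1, PEA2 replicate 1 or PEA2 replicate 3 was left out, where the adjusted p of the deposited values was 0.0863, 0.0919 and 0.0885. It was also lost when the mean of all windows within 2 kb was tested (0.41, adjusted p = 0.093). PARP12 and PARP14 were higher in all PEA2 libraries, with centred differences of 0.65 and 0.69, and did not pass the test as deposited (limma, adjusted p = 0.114 and 0.0812). With the 5 Mb median removed PARP12 was lower in PEA2, at -1.01 (adjusted p = 6.78e-07), and PARP14 was at -0.15 (adjusted p = 0.411). These values are relative to all windows nearby. In this pair the median change was 0.31 over all windows and -0.24 over other promoters, so a low value here is not a fall relative to promoters.

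DDX60L held 3.56, 3.83 and 2.73 FPKM in the PEA1 libraries and 1.15, 1.10 and 1.55 FPKM in the PEA2 libraries. Every PEA2 library was below every PEA1 library. The log2 fold change was -1.35 ± 0.24 as deposited (limma, adjusted p = 4.47e-08), -1.10 ± 0.18 after centring (adjusted p = 7.47e-06) and -0.97 with the 5 Mb median removed (adjusted p = 6.5e-05). BST2 held 2.37, 2.71 and 1.92 FPKM in PEA1 and 0.769, 1.16 and 0.799 FPKM in PEA2. It too was lower without overlap, by -1.03 ± 0.23 after centring. As BST2 exceeded 2 FPKM in PEA1 libraries and in no others, it is in the table through PEA1, and a fall from PEA1 was built into that choice. Without it 3 of 29 tested members were called lower. STAT2 fell by 0.70 and OAS2 by 0.53 on the centred log2 scale (limma, adjusted p = 0.000446 and 0.00577), and both missed the threshold with the 5 Mb median removed (adjusted p = 0.0568 and 0.206).

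**Figure D4:**
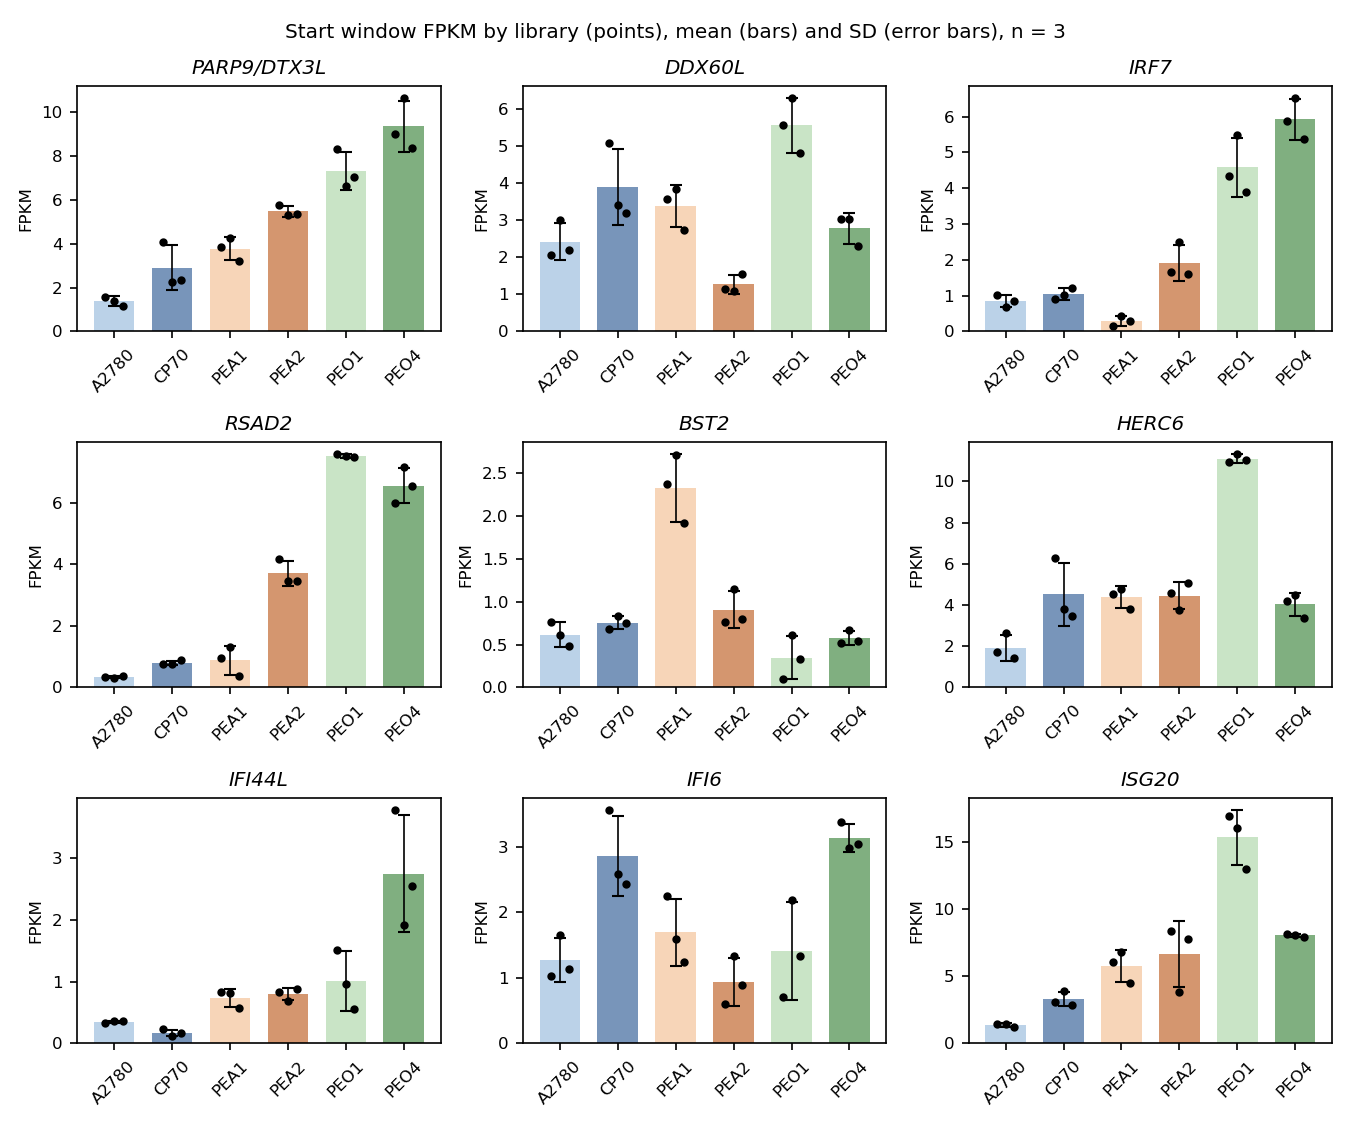
FPKM of 9 start windows in each library (points), with the mean (bars) and SD (error bars) of 3 libraries per line, sensitive lines in light and resistant lines in dark color. In RSAD2 the PEA2 libraries, at 3.46 to 4.18, lie above all PEA1 libraries, and in HERC6 the PEO4 libraries, at 3.39 to 4.51, lie below all PEO1 libraries.

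In PEO4 against PEO1, the second pair from a patient, 13 of 32 tested windows were called higher (26.4% of other promoters and 21.9% of all windows) and 7 lower (30.3% and 44.7%). The higher windows were IFI44L, IFI6, MX1, IRF1, IFIT1, OAS1, IRF9, IFI44, ISG15, IRF7, OAS2, PARP9/DTX3L and PARP14. The lower ones were HERC6, DDX60L, ISG20, DDX60, CMPK2, EIF2AK2 and PARP12, and BST2 was below the level tested. The members' median centred log2 fold change was 0.17. IFI44 and IFI44L exceeded 2 FPKM in PEO4 libraries and no others, and MX1 in 3 PEO4 libraries and 1 other, so these windows are in the table through PEO4, as IFIT2 is through PEO1, and the rise of the first 3 was in part set by that. Without these 4 windows 10 of 28 were called higher and 7 lower (26.5% and 29.5% of other promoters chosen in the same way), and the median was 0.08. At starts that were not CpG-rich 8 of 19 members were higher and 2 lower, against 23.3% and 36.8% of other promoters of that class. At CpG-rich starts 5 of 13 were higher and 5 lower, against 27.1% and 28.9%. Both classes keep the 4 windows above, with IFI44, IFI44L and IFIT2 among the first and MX1 among the CpG-rich. The counts of higher windows were therefore in part set by that choice.

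Of the 4 factors, IRF1, IRF7 and IRF9 were called higher. IRF1 held 8.19, 7.77 and 7.91 FPKM in PEO1 and 18.7, 18.3 and 15.7 FPKM in PEO4, with no overlap. Its centred log2 fold change was 1.15 ± 0.10 (limma, adjusted p = 1.1e-12). Of the IFI genes 3 of 4 were called higher, of which IFI6 alone is in the table without PEO4. IFI44L held 1.52, 0.960 and 0.557 FPKM in PEO1, from 15, 11 and 5 reads, and 3.78, 1.92 and 2.54 FPKM in PEO4, from 65, 40 and 51 reads. The lines did not overlap, and the centred difference was 1.42 ± 0.29. IFI6, the gene of a mitochondrial antiapoptotic protein, held 0.708, 2.18 and 1.34 FPKM and 3.37, 2.98 and 3.04 FPKM, which again did not overlap. The centred difference was 1.24 ± 0.26 (limma, adjusted p = 6.25e-05).

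MX1 held 1.32, 1.48 and 1.11 FPKM in PEO1 and 2.44, 2.98 and 3.69 FPKM in PEO4, and IFIT1 held 1.82, 1.75 and 1.34 FPKM and 2.62, 3.31 and 3.74 FPKM. OAS1, which makes the 2-5A messenger, held 2.53, 3.05 and 1.89 FPKM and 4.77, 4.90 and 4.43 FPKM. All PEO4 libraries were above all PEO1 libraries in each of the 3 windows. The centred log2 fold changes were 1.17 ± 0.23 for MX1, 0.96 ± 0.21 for IFIT1 and 0.94 ± 0.18 for OAS1 (limma, adjusted p = 0.000181 for IFIT1 and 1.81e-05 for OAS1). With the 5 Mb median removed these 3 genes, IFI44L, IFI6 and IRF1 changed by 0.58 to 2.09 and stayed past the threshold, whereas ISG15 (0.13, adjusted p = 0.468) and OAS2 (0.41, adjusted p = 0.0967) missed it.

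HERC6 showed the largest fall among the members. Its PEO1 libraries held 10.9, 11.3 and 11.0 FPKM and its PEO4 libraries 4.19, 4.51 and 3.39 FPKM. The lines did not overlap, and the centred log2 fold change was -1.43 ± 0.13 (limma, adjusted p = 3.14e-12). With the 5 Mb median removed it was 0.16 (adjusted p = 0.343), the windows of the same 5 Mb being lower in PEO4 as well. Whether the change of the region accounts for that of the promoter was not tested, here or for the other members given with this value. HERC5, which lies next to HERC6 on chromosome 4, did not differ in the test (centred log2 fold change -0.00082 ± 0.17, limma adjusted p = 0.997). With the 5 Mb median removed its log2 fold change was 1.58 (adjusted p = 1.85e-09).

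DDX60L held 5.56, 6.28 and 4.79 FPKM in PEO1 and 3.02, 3.02 and 2.29 FPKM in PEO4, and was lower in every PEO4 library. The log2 fold change was -0.97 ± 0.17 as deposited (limma, adjusted p = 3.64e-06), -0.95 ± 0.16 after centring (adjusted p = 3.78e-06) and -0.20 with the 5 Mb median removed (adjusted p = 0.317). DDX60, its neighbour on chromosome 4, fell by 0.83 after centring (limma, adjusted p = 1.17e-06) and by 0.07 with the 5 Mb median removed (adjusted p = 0.681). In all, of the 7 windows called lower, ISG20 alone was also lower with the 5 Mb median removed, and PARP12 was higher (0.67, adjusted p = 1.77e-05).

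The PARP9/DTX3L window held 8.30, 6.63 and 7.02 FPKM in PEO1 and 9.01, 10.7 and 8.37 FPKM in PEO4, where the lowest PEO4 library lay just above the highest PEO1 library. The log2 fold change was 0.35 ± 0.13 as deposited (limma, adjusted p = 0.0175), 0.37 ± 0.12 after centring (adjusted p = 0.0066) and 0.55 with the 5 Mb median removed (adjusted p = 0.000467). Without PEO1 replicate 2 or PEO4 replicate 2 the call was lost (adjusted p = 0.0817 and 0.131).

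**Figure D5:**
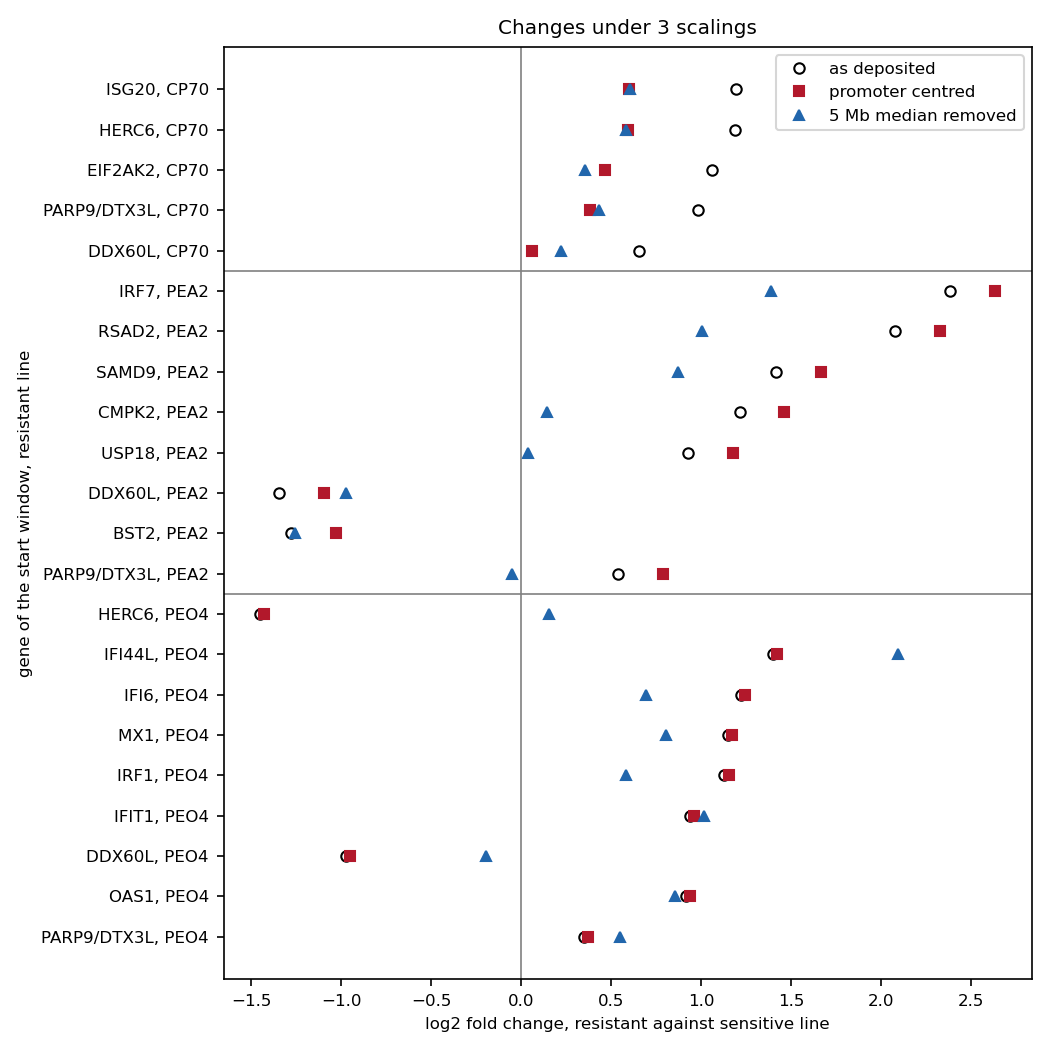
Log2 fold change, resistant against sensitive line, of the start windows tested by name, with the values as deposited (circles), after promoter centring (squares) and with the median of each 5 Mb removed from each library (triangles). DDX60L in PEA2 stayed near -1 under all 3, IFI44L in PEO4 moved up to 2.09, and HERC6 in PEO4 moved from -1.43 to 0.16.

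Over the 3 pairs, 26 of the 33 windows were called in at least 1 pair. HERC5, IFI27, IFIH1, IFIT2, IFIT5, OAS3 and SP110 were called in none. Among other promoters 76.4% were called in at least 1 pair. Of the 21 windows tested in each pair, 0 were called higher in all 3 and 0 lower (limma, 0.245% of other promoters tested in each pair were called in 1 direction throughout). PARP9/DTX3L was higher without overlap of libraries in every pair, by 0.98, 0.54 and 0.35 as deposited and 0.38, 0.79 and 0.37 after centring. It was not called in CP70, and in PEA2 it was at -0.05 with the 5 Mb median removed. The share of other promoters without overlap in every pair is not given here, so this is a description only. PARP14 differed by 0.73, 0.44 and 0.38 as deposited, with libraries that overlapped in FPKM in the PEO pair and relative to other promoters in the CP70 pair. DDX60L was called lower in PEA2 and PEO4, and IRF7 and PARP9/DTX3L were called higher in both (9.28% of other promoters were called in 1 direction in at least 2 pairs). The IRF7 libraries of PEO1 and PEO4 overlapped in FPKM. CMPK2, EIF2AK2, HERC6, ISG20 and OAS2 were called in opposite directions in different pairs (22.3% of other promoters). With the study's stricter thresholds, a log2 fold change above 2 in size and an adjusted p below 0.001, the calls were 0 members in CP70 (0.797% of all windows), 2 in PEA2 (12.7%) and 0 in PEO4 (8.49%). When the 6 line means were compared with the pair as a block, limma called 0 of 30 member windows, of which 0 fell below an unadjusted p of 0.05. Among all 74141 windows 0% were called, the smallest adjusted p was 0.172 and 1021 fell below an unadjusted p of 0.05.

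Differences in change between pairs were tested directly. Between the CP70 and PEA2 pairs 5 of 28 member windows differed (29.4% of other promoters and 35.2% of all windows), between the CP70 and PEO4 pairs 9 of 31 (21.8% and 24.4%), and between the PEA2 and PEO4 pairs 18 of 33 (56.1% and 64.8%). DDX60L changed differently in CP70 than in PEA2, by 2.00 ± 0.34 on the log2 scale as deposited (limma, adjusted p = 2.6e-07) and 1.13 after centring (adjusted p = 0.000113). Its difference between the PEA2 and PEO4 pairs did not pass the test (-0.37 ± 0.29 as deposited, limma, adjusted p = 0.251). With the 5 Mb median removed in the fit over these 12 libraries, which keeps other windows than the fits of single pairs and so has other medians, it was -0.98 (adjusted p = 0.00179). HERC6 differed between the CP70 and PEO4 pairs by 2.64 ± 0.31 as deposited (limma, adjusted p = 3e-08) and 2.03 after centring (adjusted p = 1.04e-07). For PARP9/DTX3L none of the 3 differences was called, the values as deposited being 0.44 ± 0.34, 0.63 ± 0.30 and 0.19 ± 0.24 (limma, adjusted p = 0.264, 0.0785 and 0.5). After centring they were -0.42, 0.03 and 0.43 (limma, adjusted p = 0.0709, 0.93 and 0.0312).

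The genes that lie upstream of the members were read from a list of 31 receptors, kinases, factors, inhibitors, sensors and ligands, of which 28 had a start window and the ligands IFNB1, IFNE and IFNL1 had none. In the CP70 pair 3 of 25 tested windows were called higher, the receptor gene IFNGR1, the kinase gene JAK2 and the repressor gene IRF2, and 0 lower (limma, against 7.01% and 1.48% of other promoters). With the 5 Mb median removed they changed by 0.07, 0.50 and 0.56 (limma, adjusted p = 0.844, 0.0653 and 0.0499). In the PEA pair 1 of 28 was called higher, CGAS, which encodes the DNA sensor cGAS, and 14 lower, against 17.6% and 29.4% of other promoters. CGAS was at -0.21 with the 5 Mb median removed (limma, adjusted p = 0.369). The 14 held all 4 inhibitors, SOCS1, SOCS3, PIAS1 and PTPN11, and 6 of the 9 genes grouped with the sensors. That group, to which CGAS belongs, also holds ADAR and genes that pass the signal on, such as MAVS. The list's median centred log2 fold change was -0.34. SOCS1, which blocks JAK kinases, went from 5.15 ± 0.289 FPKM (SD, n = 3) in PEA1 to 2.37 ± 0.101 in PEA2, and ADAR, the double-stranded RNA editor, from 3.51 ± 0.430 to 1.26 ± 0.367.

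In the PEO pair 9 of 27 windows of the same list were called higher and 5 lower (JAK2, IRF2, MAVS, STING1 and IKBKE), against 26.4% and 30.3% of other promoters, with a median centred log2 fold change of 0.15. With the 5 Mb median removed JAK2, IRF2 and MAVS were higher in PEO4, at 0.51, 0.32 and 0.56 (limma, adjusted p = 0.000492, 0.0294 and 0.000435). On that scale STING1 was at -0.43 (adjusted p = 0.0068) and IKBKE at 0.23 (adjusted p = 0.261). Of the 6 receptor windows 4 were called higher. These were IFNAR1, IFNAR2, IFNGR2 and IL10RB, which lie together on chromosome 21, as does MX1. IFNAR1, a chain of the type I interferon receptor, rose from 5.93 ± 0.645 FPKM in PEO1 to 13.4 ± 2.24 in PEO4, a centred log2 fold change of 1.18 ± 0.11 (limma, adjusted p = 3.06e-11), and of 0.85 with the 5 Mb median removed (adjusted p = 1.29e-06).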

How the data were processed

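ATAC-seq was read from 18 libraries, 3 for each of 6 lines, grouped by their labels. The authors aligned reads to hg19 with Bowtie2, removed duplicates with Picard, removed blacklisted and mitochondrial reads, counted reads in 1 kb windows with featureCounts and deposited FPKM made with the rpkm function of edgeR, with no versions given in the sources used here. Each window spans 1001 bases on a grid of 900. Every window exceeded 2 FPKM in at least 2 libraries, so promoters under that level are missing from the table. Of all values 100% were whole multiples of 1 read (tolerance 0.01), which gave reads and library totals. All per-sample columns were used, so the number left out was 0. Values scaled to the library total move with the share of reads outside open chromatin, and intervals of reads cover counting error only.

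Starts came from GENCODE 44 on GRCh37, and the start window was the window holding the start, the nearer centre deciding. Windows with a mean above 1 FPKM in a pair were tested on log2(FPKM + 0.1) with limma 3.58.1 (eBayes with trend in place of the study's voom weights, R 4.3.3), adjusted by Benjamini-Hochberg over all windows tested. Fold changes on this scale understate the change of low windows. Named for tests were PARP9, DDX60L and up to 8 called windows per pair with the largest centred change and libraries that did not overlap. Levels of all members are descriptions. Other single members and pathway genes given with a test were chosen after their values were seen. The members, gene lists and tests were chosen with earlier results of these data known.

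The fits were checked on simulated reads. Alternatives were other pseudocounts, minimum levels, scalings, thresholds, a replicate block, and leaving out each library. No 2 libraries of a line held counts equal within sampling noise. The result of 1 gene of the pathway list is not reported here.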

Additional observations from a re-analysis of the deposited data

Results flagged for a closer look

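Of the member windows whose change differed between pairs, the 6 given here are DDX60L and those called in opposite directions. Each was tested by limma on the difference itself over 12 libraries, with values on the log2(FPKM + 0.1) scale as deposited unless stated. DDX60L differed between the CP70 and PEA2 pairs by 2.00 ± 0.34 (adjusted p = 2.6e-07) and between the CP70 and PEO4 pairs by 1.63 ± 0.30 (adjusted p = 3.65e-05), since it was lower in PEA2 and PEO4 and not called in CP70. After centring these differences were 1.13 and 1.02 (limma, adjusted p = 0.000113 and 0.00054). The latter was 0.66 with the 5 Mb median removed (adjusted p = 0.0837). EIF2AK2 differed between the CP70 and PEO4 pairs by 1.45 ± 0.28 (adjusted p = 6.72e-05), HERC6 by 2.64 ± 0.31 (adjusted p = 3e-08) and ISG20 by 2.11 ± 0.27 (adjusted p = 1.58e-07), each called higher in CP70 and lower in PEO4. With the 5 Mb median removed these were 0.85, 0.77 and 1.42 (adjusted p = 0.00888, 0.0392 and 8.69e-05). CMPK2 differed between the PEA2 and PEO4 pairs by 1.85 ± 0.24 (adjusted p = 3.96e-09), the call being higher in PEA2 but lower in PEO4. It was 2.09 after centring (limma, adjusted p = 3.74e-14) and -0.05 with the 5 Mb median removed (adjusted p = 0.845). OAS2 differed by -1.25 ± 0.29 (adjusted p = 0.000176), lower in PEA2 and higher in PEO4, where its libraries overlapped. The difference was -1.01 after centring (limma, adjusted p = 0.0011). With the 5 Mb median removed the difference was -0.67 (adjusted p = 0.0282), and neither pair passed the test alone (adjusted p = 0.206 and 0.0967). Whether the regions around these genes account for the differences was not tested.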

How the results depend on the processing

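Relative to 3 higher and 1 lower member windows in CP70 against A2780, no minimum level gave 1 and 0, the study's upper depth limit 1 and 0, deposited values alone 10 higher, centring alone or quantile normalization 2 lower, the study's thresholds (log2 fold change above 2 in size, adjusted p below 0.001) 0 and 0, and the replicate block 1 higher. Relative to 6 higher and 4 lower in PEA2, a minimum of 2 FPKM gave 3 higher, centring alone 12 higher, quantile normalization 12 lower, the 5 Mb median removed 8 lower and the study's thresholds 2 and 0. Relative to 13 higher and 7 lower in PEO4, the upper depth limit gave 3 lower, the 5 Mb median removed 1 lower and the study's thresholds 0 and 0. Leaving out 1 library gave 0 to 4 higher and 0 to 2 lower in CP70, with 1 or fewer higher without any library but CP70 replicate 1, 2 lower without that library, and 0 lower without A2780 replicates 1 or 2 or CP70 replicate 3. It gave 4 to 6 and 3 to 5 in PEA2 and 9 to 12 and 6 to 8 in PEO4. Windows differing between pairs, 5 for CP70 and PEA2, became 8 with no minimum, 15 with centring alone and 13 with quantile normalization (3 to 7 with a library left out, 3 without PEA2 replicate 1), and 9 for CP70 and PEO4 became 14 and 20 under the latter scalings (7 to 14, 14 without CP70 replicate 1). For PEA2 and PEO4 the count was 14 to 19. Changes that reversed with the 5 Mb median removed were PARP9 in PEA2 (-0.0525), HERC6 in PEO4 (0.16) and the pair differences of PARP9 (CP70 and PEO4 -0.0379, PEA2 and PEO4 -0.63) and CMPK2 (-0.0456). The PARP9 differences also reversed with centring alone (CP70 and PEA2 -0.42) and quantile normalization (-0.14 and, for CP70 and PEO4, -0.0866). The cause was not tested. With 18 libraries as replicates 2 member windows, PARP9/DTX3L and PARP14, were called over the 3 pairs in place of 0. That setting takes the 3 libraries of a line as replicates of resistance, which they are not. Its calls therefore do not show a change shared by resistant lines, and the share of other promoters called under it is not given here. The median percentile became 26.5 in A2780 against autosomal promoters, and with the mean of all windows within 2 kb 25.3 in A2780, 45.5 in PEA2, 37.4 in PEO1 and 33.4 in PEO4. With a library left out it was 25.3 to 27.0 in A2780, 35.3 to 38.0 in PEA2 and 33.2 to 34.4 in PEO4. Leaving out windows that are in the table through 1 line of the pair, an alternative chosen after seeing the data, gave 3 and 1, 6 and 3, and 10 and 7. The planned count test on reads recovered from the FPKM steps was not run.

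Replicate numbers did not pair the libraries. Same-numbered libraries had deviations correlated at -0.41, -0.17 and -0.04 in the A2780 pair, -0.01, -0.12 and -0.01 in the PEA pair and 0.02, 0.05 and 0.04 in the PEO pair. With the replicate block the calls of ISG20 and EIF2AK2 in CP70 and of PARP9 in PEA2 (adjusted p = 0.0644) were lost. Depth limits the low windows most, as 3 reads allow up to 0.334 FPKM in the shallowest library.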
